A study of Mus musculus with 15 samples.

Results

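Wild-type IRE1a was compared with EGFP in primary mouse hepatocytes 48 hours after infection with adenovirus, on 6 of the 15 arrays of the series. The members are the 3 arrays labelled as overexpressing wild-type IRE1a and the 3 labelled as overexpressing EGFP, the control virus. The cells were hepatocytes of the C57BL/6 strain, kept in the serum-free medium HepatoZYME-SFM, and neither group received a further treatment. A further 3 arrays carried S724A IRE1a, a mutant with alanine in place of a serine, also for 48 hours. A second arm held 3 arrays with a control hairpin and 3 with a hairpin against IRE1a, infected for 72 hours and then given glucagon for 4 hours. All 5 groups came from infected cells, so every comparison is between viruses and none is with uninfected cells. The labels do not give the promoter of the viruses, the species of the IRE1a insert, the share of cells infected, or the age or sex of the mice. The series text states that 3 experiments were done independently.

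IRE1a, the product of Ern1, is a kinase and RNase that spans the endoplasmic reticulum (ER) membrane. When unfolded proteins accumulate there, it cuts the messenger RNA of Xbp1, and the spliced form encodes a transcription factor that acts on genes for protein entry into the ER, folding, glycosylation, disposal and export. The same RNase can cleave other messages at the ER, a process known as regulated IRE1-dependent decay. Hepatocytes are a main secretory cell of the body, releasing albumin, clotting factors, complement and lipoproteins.

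Signals are log2 values of 1 probe set per gene, so a difference of 1 is a 2-fold change. A gene is said to have risen or fallen when limma's adjusted p (Benjamini-Hochberg over 16294 genes) was under 0.05. With wild-type IRE1a 828 genes rose (5.08% of those tested) and 422 fell (2.59%), so 66.2% of the changed genes rose. By 2-fold or more, 161 rose (0.988%) and 86 fell (0.528%). For 4344 genes (26.7%) the 2 groups of 3 arrays did not overlap. The same held for 99.5% of the rises and 99.1% of the falls, so a lack of overlap adds little to a call. The balance of rises and falls depended on scaling: it was 760 to 614 after quantile normalization, 721 to 492 after centring on the median gene and 755 to 324 after centring on the median probe set. These fits took the arrays as unpaired. With the replicate number as a block 1726 genes rose (10.6%) and 813 fell (4.99%). Without the block, leaving out EGFP array 2 left 409 rises, and leaving out wild-type array 3 left 467.

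**Figure D1:**
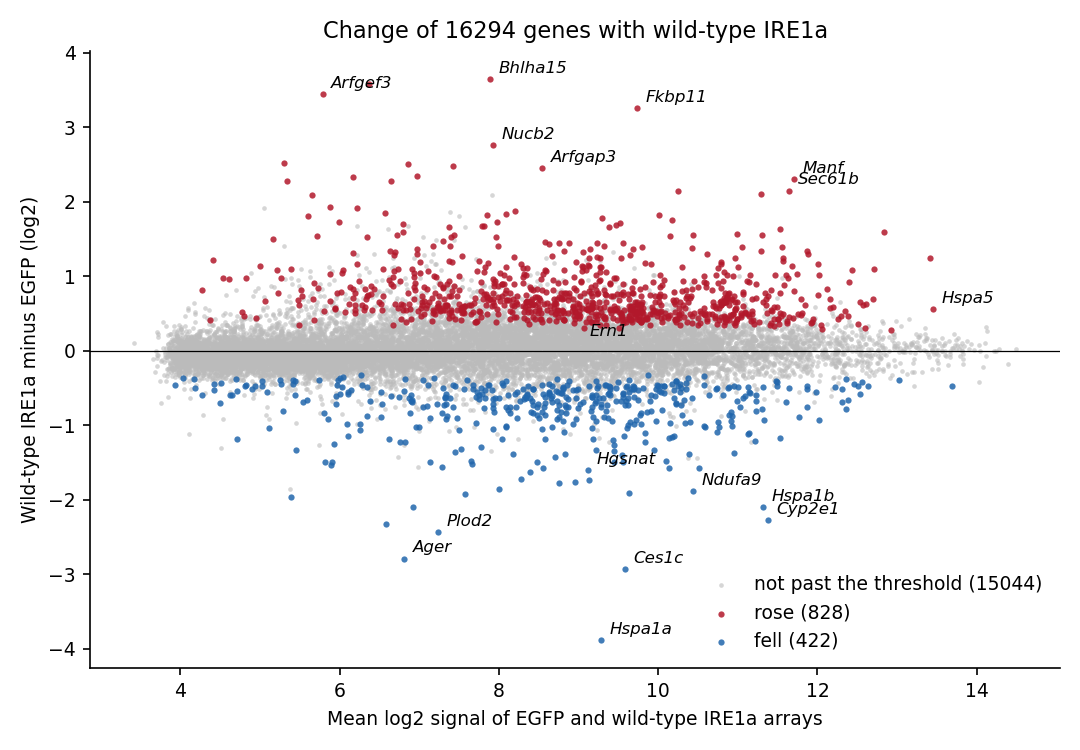
Change of 16294 genes with wild-type IRE1a. The x axis is the mean log2 signal over the EGFP and wild-type arrays, the y axis the difference of wild-type IRE1a minus EGFP (log2), and each point a gene. Red points are the 828 that rose, blue the 422 that fell and grey those not past the threshold. Bhlha15 (3.65), Arfgef3 (3.44) and Fkbp11 (3.26) lie at the top, Hspa1a (-3.88) and Ces1c (-2.93) at the bottom, and Ern1 (0.12) near the line.

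The targeted gene itself did not mark the groups. Ern1 signals were 9.41, 8.68 and 8.81 in EGFP replicates 1 to 3 and 9.30, 8.89 and 9.07 with wild-type IRE1a, a difference of 0.12 ± 0.19 (SE, n = 3, adjusted p = 0.775). The groups overlapped, and none of the 5 Ern1 probe sets passed, their differences running from -0.30 to 0.12. The same probe set was lower by 1.47 with the hairpin against IRE1a (adjusted p = 0.00293). Whether any of the 5 lies within the virus insert is not given, and a probe set outside it checks nothing about the virus.

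The signals for Alb, albumin (14.48 with EGFP, 14.30 with wild-type IRE1a), Ttr, the thyroxine carrier (13.88 and 13.77), and Cps1 of the urea cycle (11.82 and 11.72) were bright in both groups. Of the 11 hepatocyte markers tested, 0 rose and 1, Cyp2e1, fell (1 and 1 with the replicate block), and only Ass1 was dim in both groups (4.85 and 4.79). Markers of other liver cells had group means from 4.36 to 12.07 for macrophages, 4.33 to 7.40 for endothelium, 3.91 to 7.33 for stellate cells and fibroblasts, 4.92 to 7.12 for cholangiocytes, 3.91 to 6.31 for lymphocytes and neutrophils and 4.18 to 7.26 for erythroid cells. The dimmest of the first 3 lists were Vsig4 of Kupffer cells (4.46 with EGFP and 4.36 with wild-type IRE1a), Pecam1 of endothelium (4.34 and 4.33) and Lum of fibroblasts (4.05 and 3.91). Of the 9 macrophage, 10 endothelial, 10 stellate and fibroblast, 6 cholangiocyte, 8 lymphocyte and neutrophil and 4 erythroid markers tested, 0 passed in limma (1 at an unadjusted p under 0.05, Cd68; 2 passed with the replicate block, Cd68 and Krt19). The mean level of the macrophage markers ran from 6.08 to 6.13 over the EGFP arrays and from 5.99 to 6.22 over the wild-type arrays. Their brightest member, Cd68, a lysosomal protein, differed by 0.41 ± 0.15 (adjusted p = 0.114, and 0.0124 with the block). Which cells its signal came from was not tested.

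A sequence known to be bound by spliced XBP1 was looked for in promoters. A scan was made of RefSeq promoters of assembly GRCm38.p6, from 250 bases before to 50 after each start, on both strands. The XBP1 core is GCCACGT, read as ACGTGGC on the other strand. It overlaps 6 letters of the unfolded protein response element TGACGTGG, 5 of the E-box CACGTG, and the CCACG of the ER stress response element (CCAAT, 9 bases of any kind, CCACG). Below are 29 bases around the core for the 10 genes with the largest rises among those holding a core, in the 5′ to 3′ direction of the gene with the core in capitals. Arfgef3 is at chr10:18743740-18743768 on the minus strand with the core starting at base 2 counted from the start, negative numbers lying before it, and Fkbp11 at chr15:98727589-98727617 (minus, 22). Nucb2 is at chr7:116504208-116504236 (plus, -150), Cdca5 at chr19:6084910-6084938 (plus, -176) and Tmed3 at chr9:89705227-89705255 (minus, -201, with a second core at 30). Ttk is at chr9:83834634-83834662 (plus, -44), Herpud1 at chr8:94386371-94386399 (plus, -47), Lpin3 at chr2:160880679-160880707 (plus, 21, with an overlapping second match at 24), Gfpt1 at chr6:87042711-87042739 (plus, -124) and Cdk5rap3 at chr11:96916483-96916511 (minus, 15).
Arfgef3: cggcggggctgACGTGGCctgtggcgcgg
Fkbp11: ttggcttggacACGTGGCaagctatccta
Nucb2: cttcggagagcGCCACGTccctcttggct
Cdca5: atccctccgctGCCACGTctcttccgggt
Tmed3: tttctccggagACGTGGCagacactaagt
Ttk: cccacgcttccACGTGGCgagccgtaacc
Herpud1: gcgctgattggGCCACGTtggacactgac
Lpin3: agcctgtttctGCCACGTggctcacagct
Gfpt1: gtcgagcccctGCCACGTcgctacccgca
Cdk5rap3: tgaagacggcgACGTGGCtgaaggaggcc
Their log2 rises were 3.44 for Arfgef3, 3.26 for Fkbp11, 2.76 for Nucb2, 2.34 for Cdca5, 2.14 for Tmed3, 1.93 for Ttk, 1.63 for Herpud1, 1.56 for Lpin3, 1.46 for Gfpt1 and 1.45 for Cdk5rap3. Cdca5 (sororin) holds sister chromatids together and Ttk is a kinase of the spindle checkpoint. Gfpt1 makes the precursor of amino sugars for glycosylation and Cdk5rap3 takes part in UFMylation at the ER. Ttk, Gfpt1 and Cdk5rap3 were named after their values were seen, and Cdca5 did not pass with EGFP array 2 left out. Ttk (adjusted p = 0.0491) did not pass with any 1 of EGFP arrays 1, 2 and 3 and wild-type arrays 2 and 3 left out, with the 6 arrays alone or with median centring.

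Of the tested genes 12926 had a promoter in the table. The XBP1 core lay in a promoter of 12.2% of the 673 rises, 28.7% of the 129 rises of at least 2-fold (37 genes), 3.61% of the 332 falls and 4.15% of all. The unfolded protein response element was in 2.82% of rises and 1.04% of all, the ER stress response element in 1.49% of rises and 0.155% of all, and the palindromic E-box in 12.2% of rises, 13% of falls and 10.6% of all. The cAMP response element TGACGTCA, scanned for comparison, was in 3.27% of rises and 3.07% of all. Counted the other way, 82 of 537 genes with a core rose (15.3%) and 12 fell (2.23%), with a median change of 0.11. Of 12389 genes without it 4.77% rose and 2.58% fell, with a median of 0.01. In all 32851 promoters of the table, the core was present in 2.58%. The core was also common in genes of the lists for ER entry, folding, glycosylation, disposal and transport that did not rise. It lay in 29.8% of the 84 such genes that rose and in 17.9% of the 84 that did not. The unfolded protein response element was in 7.14% and 8.33% of them. These shares describe letters in a window and no test was made of them.

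**Figure D2:**
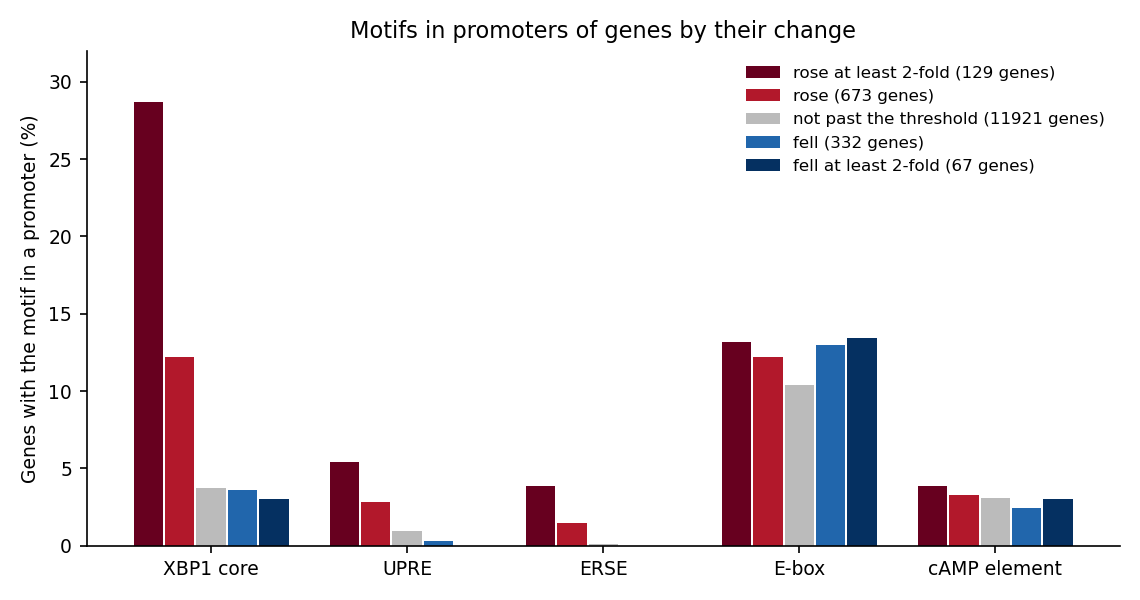
Share of genes with each motif in a RefSeq promoter (%), for genes grouped by their change with wild-type IRE1a. Bars are percentages of the genes with a promoter in the table, whose number is in the key. The XBP1 core reaches 28.7% in rises of at least 2-fold against 3.72% in genes not past the threshold, while the E-box runs from 10.4% to 13.4% and the cAMP element from 2.41% to 3.88%.

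Among the sensors and transcription factors of the unfolded protein response, 5 of 20 rose and 1 fell (8 and 1 with the block), with a median change of 0.18 against 0.00 for all genes. The shares were 25.0% and 5.0%, against 5.08% and 2.59% of all genes. The leading rise of the whole comparison was in this list: Bhlha15, also called MIST1, a transcription factor of secretory cells. Its signals were 6.33, 6.09 and 5.78 with EGFP and 9.36, 10.07 and 9.72 with wild-type IRE1a (3.65 ± 0.25, adjusted p = 7.75e-07). All wild-type arrays lay above all EGFP arrays by more than the spread within either group, although the second, dimmer probe set of the gene differed by 0.90 (adjusted p = 0.0698). Xbp1 itself, read as total message and not as its spliced form, had 12.39, 12.21 and 12.31 with EGFP and 12.80, 13.06 and 12.94 with wild-type IRE1a (0.63 ± 0.11, adjusted p = 0.00309). Eif2ak3, the sensor PERK, rose by 1.15 ± 0.23, Creb3l2, a membrane-bound transcription factor, by 1.09 ± 0.22, and Wfs1, an ER membrane protein, by 0.64 ± 0.13; Eif2ak3 and Wfs1 were named after their values were seen. Ppp1r15b, which directs dephosphorylation of the translation factor eIF2α, fell from 10.03 ± 0.03 (SD) to 8.43, 9.02 and 9.04 (-1.20 ± 0.14, adjusted p = 9.75e-05).

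Rab3d, a vesicle GTPase and reported target of Bhlha15, rose from 7.50, 7.84 and 7.36 to 8.78, 8.82 and 8.88 (1.26 ± 0.14, adjusted p = 4.74e-05). The groups did not overlap. Of the 5 reported Bhlha15 targets tested, 2 rose and 0 fell.

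The targets of the PERK and ATF4 arm, the integrated stress response, gave a different count with and without the block. In limma 0 of 24 rose (7 at an unadjusted p under 0.05) and 1 fell, the cystine transporter Slc7a11 (-1.42 ± 0.24, adjusted p = 0.00208). That 1 fall is 4.17% of the list, against 2.59% of all genes. With the replicate block 8 rose and 2 fell. The 8 included Fgf21, a hormone made by the liver, whose signals were 6.44, 6.12 and 7.65 with EGFP and 7.83, 8.36 and 9.0 with wild-type IRE1a (1.66 ± 0.51, adjusted p = 0.0606, and 0.000205 with the block). The arrays of Fgf21 differed within each group, but each wild-type array lay above every EGFP array. Chac1, which breaks down glutathione, differed by 1.02 ± 0.33 (adjusted p = 0.0744, and 0.00164 with the block). Ddit3, the gene of CHOP, and Atf4 overlapped between groups, at 0.19 ± 0.19 (adjusted p = 0.617) and 0.09 ± 0.12 (adjusted p = 0.722); with the block these were 0.499 and 0.635.

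Among genes that bring new proteins into the ER, all 8 tested genes of the signal recognition particle and its receptor, which carry ribosomes to the ER, rose by 0.44 to 1.06, with a median of 0.75. Srp9 had 11.20, 10.96 and 11.15 with EGFP and 12.09, 12.13 and 12.13 with wild-type IRE1a (1.02 ± 0.09, adjusted p = 8.30e-06). Of 11 genes of the Sec61 channel and its partners 8 rose and 1 fell, with a median of 1.00. Sec61b, its β subunit, had 10.75, 10.47 and 10.47 with EGFP and 12.70, 12.68 and 12.78 with wild-type IRE1a (2.15 ± 0.12, adjusted p = 1.24e-07). Its wild-type arrays were higher and lay within 0.10 of each other. The paralogues of the pore-forming subunit moved in opposite directions: Sec61a1 rose by 1.16 ± 0.10, with 6 of 6 probe sets past, and Sec61a2 fell by 0.51 (SE 0.11, 1 of 2 probe sets). Ssr2, of the TRAP complex beside the channel, rose by 1.39 ± 0.11.

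All 5 signal peptidase genes, which trim the entry signal from new proteins, rose, with a median of 1.30. The catalytic paralogue Sec11c rose by 1.71 ± 0.11 and Sec11a by 0.66 ± 0.09; Sec11a was named after its values were seen and did not pass when its probe sets were averaged. Sec11c had 8.63, 8.59 and 8.80 with EGFP and 10.29, 10.33 and 10.51 with wild-type IRE1a. Its second, dimmer probe set differed by 0.31 and did not pass (adjusted p = 0.271 in limma). The subunits Spcs3 and Spcs2 rose by 1.57 ± 0.15 and 1.30 ± 0.09. Serp1, a partner of the channel outside the lists, rose from 12.10, 12.10 and 11.91 to 13.72, 13.61 and 13.58 (1.60 ± 0.10, adjusted p = 4.10e-07, named after its values were seen).

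In N-glycosylation, 8 of 12 genes of the oligosaccharyltransferase, which attaches sugar chains to new proteins, rose and 0 fell, with a median of 0.60. Ostc had 10.33, 10.22 and 10.18 with EGFP and 12.36, 12.36 and 12.31 with wild-type IRE1a (2.10 ± 0.16, adjusted p = 1.53e-06). The second probe set of Ostc did not pass. Magt1, an oxidoreductase subunit, rose by 1.76 ± 0.13 and Dad1 by 1.12 ± 0.11. Of 21 genes that build the sugar chain on dolichol 7 rose and 1 fell, with a median of 0.22, but 4 rose with EGFP array 2 or 3 left out. Alg2, an early mannosyltransferase, rose by 1.24 ± 0.15 and Dpagt1, the first enzyme of the path, by 0.78 ± 0.10. The mannosyltransferase that adds the first mannose, Alg1, fell from 8.91, 8.95 and 8.91 to 8.31, 8.32 and 8.39 (-0.58 ± 0.10, adjusted p = 0.00258). Gmppa, of GDP-mannose supply, rose by 1.25 ± 0.11 (named after its values were seen).

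**Figure D3:**
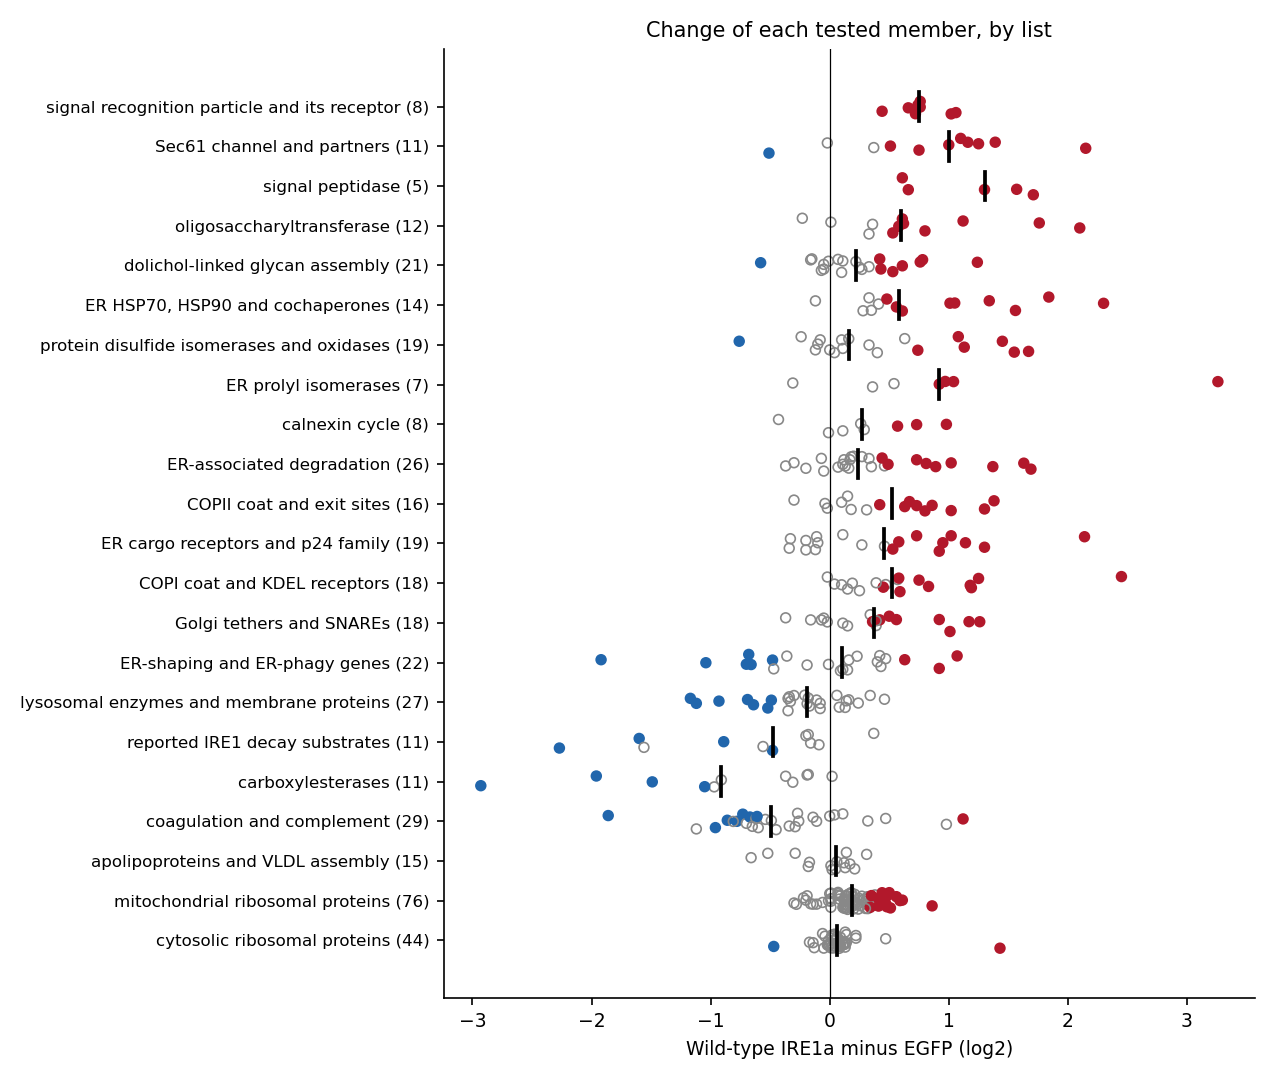
Change of each tested member of 22 lists. The x axis is the difference of wild-type IRE1a minus EGFP (log2), each point a gene, and the number of tested members stands after each list's name. Filled red points rose, filled blue points fell and open points did not pass; the black bar is the list's median. All 8 signal recognition particle genes and all 5 signal peptidase genes are red, while no apolipoprotein is filled.

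Of 14 HSP70, HSP90 and cochaperone genes of the ER lumen 9 rose, 0 fell and 5 did not pass, with a median of 0.58. Manf, a secreted cofactor of BiP, had 10.59, 10.40 and 10.69 with EGFP and 12.78, 12.90 and 12.90 with wild-type IRE1a (2.30 ± 0.11, adjusted p = 2.06e-08). Hspa5, which encodes BiP, had 13.12, 13.20 and 13.20 with EGFP and 13.71, 13.77 and 13.72 with wild-type IRE1a (0.56 ± 0.11, adjusted p = 0.00475). Neither gene's groups overlapped. Sdf2l1, a BiP cochaperone complex member, had 7.30, 6.98 and 7.23 with EGFP and 8.23, 9.07 and 9.73 with wild-type IRE1a (1.84 ± 0.26), a wider spread than for Manf. Hspa13 rose by 1.56 ± 0.11 with 4 of 4 probe sets past, Dnajb9 (ERdj4) by 1.34 ± 0.20 and Hsp90b1 (GRP94) by 1.01 ± 0.11. Ficd, the enzyme that switches BiP off and on by AMPylation, rose by 1.55 ± 0.12 (named after its values were seen).

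The Hspa5 promoter holds the ER stress response element in the orientation of the gene and is shown because the element lies in few promoters. The 250 bases before its start are at chr2:34771840-34772089 on the plus strand, with the CCAAT and CCACG of the element in capitals.
Hspa5: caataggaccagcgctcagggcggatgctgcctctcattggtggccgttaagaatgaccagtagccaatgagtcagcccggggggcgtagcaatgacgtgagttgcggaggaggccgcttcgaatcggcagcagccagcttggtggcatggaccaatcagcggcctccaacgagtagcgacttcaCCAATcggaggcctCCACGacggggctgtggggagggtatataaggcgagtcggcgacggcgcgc

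Among enzymes that form disulfide bonds, of 19 protein disulfide isomerases and oxidases 6 rose and 1 fell, with a median of 0.16. Txndc11 rose by 1.67 ± 0.17, Pdia6 from 10.63, 10.54 and 10.40 to 12.19, 11.99 and 12.05 (1.55 ± 0.12, 1 of 2 probe sets past). The oxidase Ero1b rose by 1.45 ± 0.13, while its paralogue Ero1a, whose groups overlapped, differed by -0.10 ± 0.21 (adjusted p = 0.844; named after its values were seen). The membrane-anchored Tmx3 fell by 0.76 (SE 0.13, 4 of 4 probe sets).

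Of 7 ER prolyl isomerases, which turn proline bonds during folding, 4 rose and 0 fell. Fkbp11 had 8.34, 7.99 and 7.99 with EGFP and 11.45, 11.18 and 11.46 with wild-type IRE1a (3.26 ± 0.11, adjusted p = 7.17e-10, the smallest of the comparison). All 3 wild-type arrays lay far above the EGFP arrays on this probe set, and the gene's other 2, which were dimmer, differed by 0.40 and -0.15 and did not pass. Fkbp2 rose by 0.97 ± 0.14 and Ppib by 0.92 ± 0.11. In the calnexin cycle, which retains glycoproteins until folded, 3 of 8 rose and 0 fell (3 and 1 with the block): Calr by 0.98 ± 0.13, Mogs by 0.73 ± 0.12 and Uggt1 by 0.57 ± 0.15. The call of Uggt1 did not hold with EGFP array 2 or 3 or wild-type array 3 left out.

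ER-associated degradation, which returns misfolded proteins to the cytosol, gave 9 rises and 0 falls among 26 genes, with a median of 0.24. Edem2, a mannosidase-like protein of this path, had 8.80, 8.49 and 8.60 with EGFP and 10.32, 10.32 and 10.30 with wild-type IRE1a (1.69 ± 0.15, 1 of 2 probe sets past). Herpud1, an organiser of the degradation complex, had 10.74, 10.35 and 11.06 against 12.16, 12.36 and 12.52 (1.63 ± 0.17). The groups of both genes did not overlap. Derl1, a channel component, rose by 0.89 ± 0.10 with 4 of 4 probe sets past.

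Export from the ER followed, again with differences between paralogues. Of 16 COPII coat and exit-site genes 9 rose and 0 fell, with a median of 0.52. Sec24d, a cargo-binding coat subunit, had 9.82, 9.70 and 9.69 with EGFP and 11.07, 11.21 and 11.07 with wild-type IRE1a (1.38 ± 0.14, adjusted p = 2.92e-05). Its paralogue Sec24c rose by 0.86 ± 0.14 (not with the mean of its probe sets), while Sec24a and Sec24b, whose groups overlapped, differed by 0.18 ± 0.15 and -0.04 ± 0.12. Sec23b rose by 0.80 ± 0.10 against -0.30 ± 0.15 for Sec23a (adjusted p = 0.265). The GTPase Sar1a rose by 0.67 ± 0.11 against 0.10 ± 0.09 for Sar1b (adjusted p = 0.612). The differences between paralogues were not tested, and Sec24a, Sec24b, Sec24c, Sec23a and Sar1b were named after their values were seen.

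Of 19 ER cargo receptors and p24 proteins 9 rose and 0 fell (10 and 1 with the block). Tmed3, a p24 protein, had 9.31, 9.08 and 9.15 with EGFP and 11.22, 11.23 and 11.49 with wild-type IRE1a (2.14 ± 0.14, adjusted p = 4.56e-07). Lman1 and Mcfd2, which together carry clotting factors V and VIII, rose by 1.30 ± 0.11 and 1.14 ± 0.10. The groups of these 3 genes did not overlap.

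On the return path, 9 of 18 COPI coat and KDEL receptor genes rose and 0 fell. Arfgap3, which drives coat release, had 7.37, 7.21 and 7.39 with EGFP and 9.58, 9.83 and 9.92 with wild-type IRE1a (2.45 ± 0.19). The 3 KDEL receptors, which retrieve chaperones, rose by 1.25 ± 0.16 (Kdelr3), 1.18 ± 0.16 (Kdelr2) and 0.83 ± 0.12 (Kdelr1), the last 2 named after their values were seen. Of 18 Golgi tethers and SNAREs 8 rose and 0 fell (10 and 1 with the block, 5 and 0 with the 6 arrays alone), with Bet1 at 1.26 ± 0.13, the tether Uso1 at 1.17 ± 0.13 and the SNARE Stx5a at 0.92 ± 0.12.

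Genes that shape or degrade the ER moved both ways. Of 22 such genes 3 rose and 6 fell (7 and 7 with the block). Retreg3, an ER-phagy receptor, had 9.07, 7.92 and 8.60 with EGFP and 5.66, 7.04 and 7.12 with wild-type IRE1a (-1.92 ± 0.33, 2 of 3 probe sets), and the arrays of both groups were spread. Tex264, another such receptor, had 9.87, 9.44 and 9.76 against 8.76, 8.44 and 8.76 (-1.04 ± 0.13), and Retreg2 fell by 0.66 (SE 0.13). The receptor Ccpg1 rose by 0.92 ± 0.13, the tubule-fusing Atl1 by 1.07 ± 0.22 and Calcoco1 by 0.63 ± 0.16, which did not pass with EGFP array 2 or wild-type array 3 left out.

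Among genes outside the transport lists, Arfgef3, a regulator of secretory granules, had 3.94, 3.99 and 4.28 with EGFP, near the dimmest signals of the arrays. With wild-type IRE1a it had 7.56, 7.65 and 7.33 (3.44 ± 0.17, adjusted p = 2.63e-08, 2 of 2 probe sets). The Golgi and ER calcium-binding protein Nucb2 had 6.59, 6.19 and 6.87 against 9.20, 9.26 and 9.47 (2.76 ± 0.23). Vasn, a membrane protein that binds TGF-β, rose from 6.44, 5.98 and 6.15 to 8.62, 8.53 and 8.87 (2.48 ± 0.21). Fam107a, an actin-binding protein, rose by 3.58 ± 0.90, but did not pass with any of EGFP arrays 2 and 3 and wild-type arrays 1 and 3 left out. Among genes in none of the lists, named after their values were seen, the peroxisome-dividing factor Pex11g rose from 8.15, 8.10 and 8.20 to 9.64, 9.54 and 9.61 (1.45 ± 0.09, 3 of 3 probe sets). Sgk1, a kinase induced by glucocorticoids, rose by 1.21 ± 0.10. Its groups did not overlap.

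**Figure D4:**
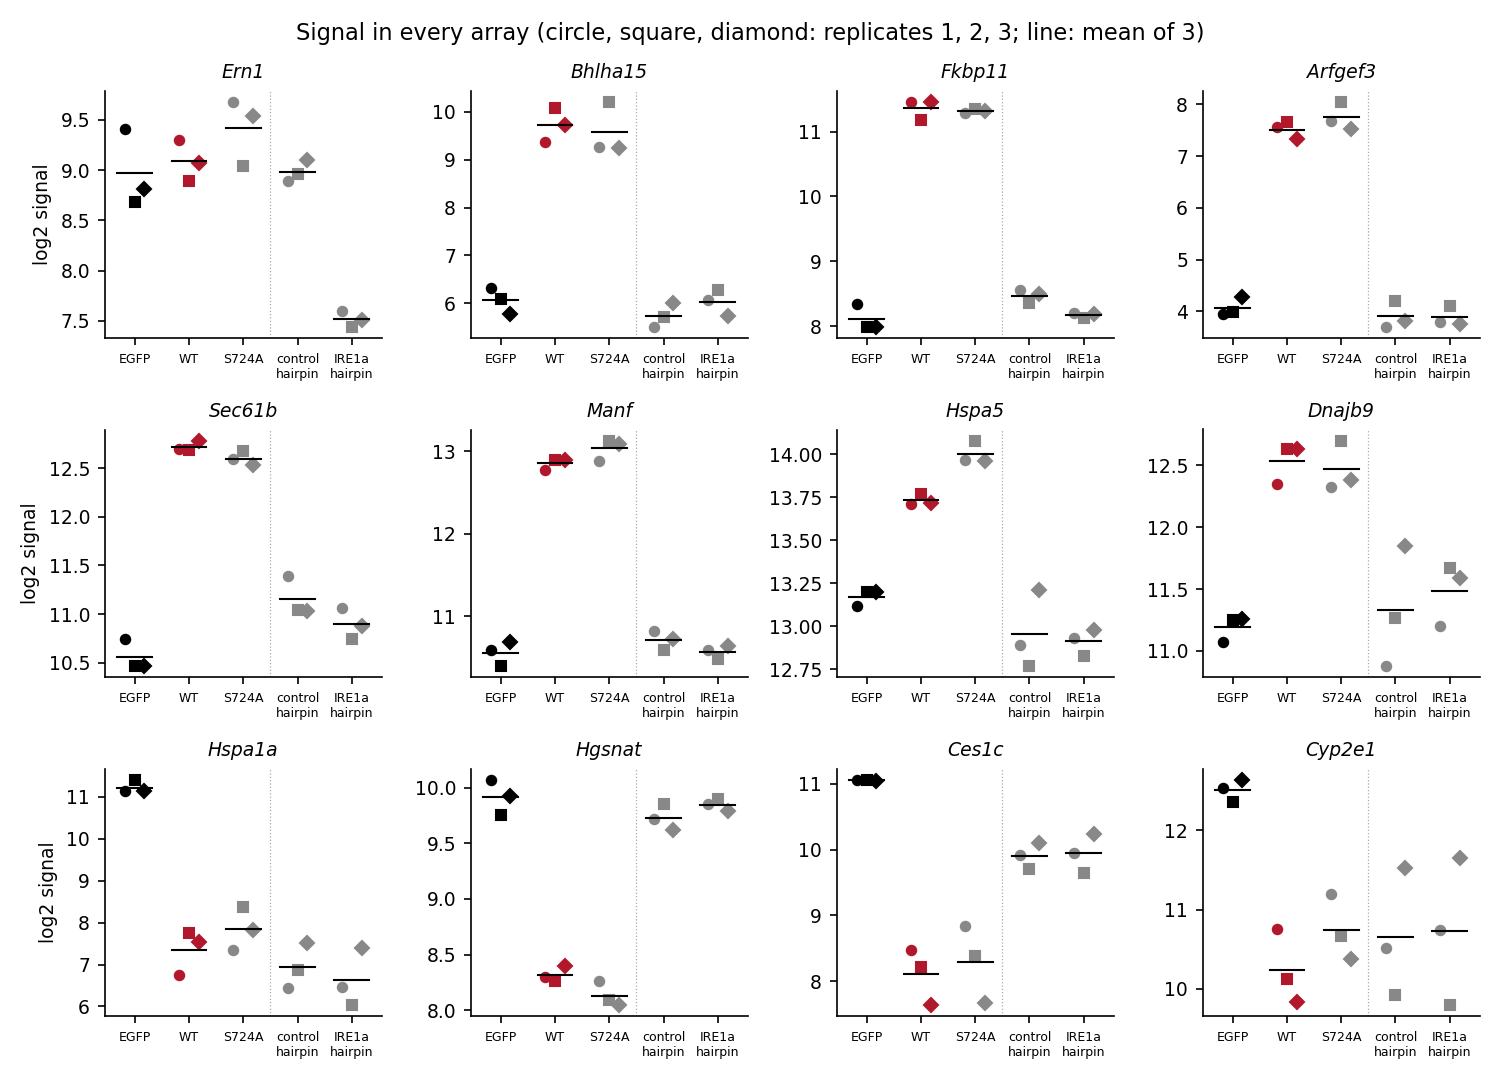
Log2 signal of 12 genes in every array. The x axis gives the 5 groups, circles, squares and diamonds are replicates 1, 2 and 3, and the line is the mean of 3 arrays; the dotted line parts the 48-hour groups from those with hairpins and glucagon, and each panel has its own y axis, which does not start at 0. Wild-type (red) and EGFP (black) arrays overlap for Ern1 and in no other panel. Hspa1a is near 11.2 with EGFP and at or below 8.4 in the 12 other arrays.

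The falls were led by a gene whose EGFP arrays stood apart from all others. Hspa1a, the inducible cytosolic HSP70, had 11.13, 11.41 and 11.13 with EGFP and 6.75, 7.75 and 7.53 with wild-type IRE1a (-3.88 ± 0.36, adjusted p = 1.03e-05). Its mean was 7.85 with S724A IRE1a, 6.95 with the control hairpin and 6.63 with the hairpin against IRE1a. Hspa1b, a near-identical copy whose probe sets may read both genes, had 12.41, 12.51 and 12.17 against 9.96, 10.59 and 10.26 (-2.10 ± 0.20, 3 of 3 probe sets). Of 21 cytosolic heat shock genes, 0 rose and these 2 fell, with a median of -0.19. The 2 falls are 9.52% of the list, against 2.59% of all genes. Hspa8, the constitutive HSP70, differed by -0.18 ± 0.09 (adjusted p = 0.254) and Hsph1 by -0.35 ± 0.13 (adjusted p = 0.131); both were named after their values were seen.

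In 3 other falls, too, the EGFP arrays lay above all others, though the order of the remaining groups varied. Ager, the receptor for glycated proteins, had 8.02, 8.09 and 8.51 with EGFP and 5.35, 5.46 and 5.44 with wild-type IRE1a (-2.79 ± 0.17), and its mean was 5.43 with the control hairpin. The second probe set of Ager gave -0.01. Rgcc, a cell cycle regulator, had 7.91, 7.81 and 7.51 against 5.42 in each wild-type array (-2.32 ± 0.39), and 4.15 with the control hairpin. Klf2, a transcription factor, had 7.55, 8.42 and 7.95 against 5.64, 6.13 and 5.86 (-2.10 ± 0.25), and 6.21 with the control hairpin. Among the rises, the control hairpin mean was 8.36 for Vasn and 9.38 for Rps25, against 8.67 and 9.34 with wild-type IRE1a and 6.19 and 7.91 with EGFP. The control hairpin mean lay closer to the wild-type than to the EGFP mean for 30.3% of the 422 falls, 34.7% of the 828 rises and 50.7% of all genes. Virus, time and glucagon differ together between the control hairpin arrays and the EGFP and wild-type arrays, and cannot be told apart there. The S724A arrays had the infection time of the EGFP arrays and no glucagon. Their means were 5.11 for Ager, 5.93 for Rgcc, 6.29 for Klf2, 8.46 for Vasn and 9.33 for Rps25. What set the EGFP arrays apart was not tested.

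Messages reported to be cleaved by IRE1 in regulated decay made up the next group. Of 11 tested 0 rose and 4 fell (1 and 6 with the block), with a median of -0.48. Hgsnat, a lysosomal acetyltransferase, had 10.07, 9.75 and 9.92 with EGFP and 8.30, 8.26 and 8.40 with wild-type IRE1a (-1.60 ± 0.10, adjusted p = 4.62e-07). Its mean was 9.73 with the control hairpin, close to EGFP. Cyp2e1, a cytochrome P450 of ethanol metabolism, had 12.54, 12.36 and 12.64 against 10.76, 10.13 and 9.84 (-2.27 ± 0.43), and 10.66 with the control hairpin. Tapbp, which loads peptides on MHC class I, fell by 0.89 (SE 0.17, 2 of 2 probe sets).

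Of 11 carboxylesterases, hydrolases of lipids and drugs in the ER lumen, 0 rose and 4 fell (7 with the block, 2 with EGFP array 2 left out), with a median of -0.91. Ces1c had 11.06, 11.05 and 11.04 with EGFP and 8.48, 8.22 and 7.64 with wild-type IRE1a (-2.93 ± 0.26, adjusted p = 6.16e-06). Ces1g had 6.20, 6.54 and 6.36 against 4.42, 4.26 and 4.53 (-1.96 ± 0.31), and Ces1f fell by 1.49 (SE 0.32), which did not pass with EGFP array 2 left out. The groups of these 3 genes did not overlap. The genes are close copies of each other, and how far each probe set reads its neighbours is not given.

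Among NRF2 antioxidant targets 0 of 20 rose and 6 fell, with a median of -0.23. Taldo1, an enzyme of the pentose phosphate path, had 11.34, 10.94 and 11.62 with EGFP and 9.89, 9.41 and 9.90 with wild-type IRE1a (-1.57 ± 0.21). Txnrd1, thioredoxin reductase, fell by 0.89 (SE 0.12, 3 of 3 probe sets) and Slc7a11 as given above. Of the 14 members that did not pass, Nqo1 differed by -0.29 ± 0.26 (adjusted p = 0.576) and Hmox1 by -0.08 ± 0.25 (adjusted p = 0.903). Both were named after their values were seen.

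Lysosomal genes gave 0 rises and 7 falls among 27 (2 and 8 with the block), with a median of -0.19. Lamp1, a main protein of the lysosomal membrane, had 12.15, 12.11 and 12.06 with EGFP and 11.05, 10.92 and 10.84 with wild-type IRE1a (-1.17 ± 0.12, adjusted p = 2.07e-05). The protease Ctsb fell by 0.93 (SE 0.13, 3 of 5 probe sets) and Grn, progranulin, by 0.69 (SE 0.11, 3 of 3). The proprotein convertase Furin, which cleaves many secreted proteins, fell from 9.38, 9.14 and 9.13 to 7.87, 7.47 and 7.42 (-1.63 ± 0.15). Stim2, an ER calcium sensor, fell from 9.95, 9.72 and 9.83 to 7.92, 8.04 and 8.28 (-1.76 ± 0.12, 1 of 2 probe sets), and Smad4 of TGF-β signalling by 1.03 (SE 0.10, 3 of 3). These last 3 are in no list and were named after their values were seen.

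Secreted plasma proteins did not move as one. Of 29 coagulation and complement genes 1 rose and 7 fell (2 and 12 with the block or with the 6 arrays alone), with a median of -0.49. Hc, complement C5, had 8.98, 8.60 and 9.20 with EGFP and 7.15, 6.62 and 7.44 with wild-type IRE1a (-1.86 ± 0.21, adjusted p = 5.97e-05). The clotting factors F7 and F12 fell by 0.86 (SE 0.15) and 0.73 (SE 0.13). Masp1, a protease of the lectin pathway, rose by 1.12 ± 0.20 (3 of 5 probe sets). Of 15 apolipoprotein and VLDL assembly genes 0 passed in limma (1 at an unadjusted p under 0.05, 2 with the block), with Apoh at -0.52 ± 0.20 (adjusted p = 0.151). Of 26 acute phase and chemokine genes 0 rose and 1 fell (2 and 1 with the block), Itih4, from 10.80, 10.78 and 10.94 to 9.45, 9.15 and 9.47 (-1.48 ± 0.18). That 1 fall is 3.85% of the list, against 2.59% of all genes.

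In lipid metabolism, 2 of 22 genes of fatty acid and triglyceride synthesis rose and 2 fell (4 and 3 with the block). That is 9.09% in each direction, against 5.08% and 2.59% of all genes. The shares were 5.26% in each direction for cholesterol synthesis, and 4.55% and 0% for fatty acid oxidation. Dgat2, which makes triglyceride, lay between 9.96 and 10.05 with EGFP and had 8.34, 8.11 and 8.33 with wild-type IRE1a (-1.74 ± 0.29, 2 of 2 probe sets). Agpat2 fell by 0.73 (SE 0.13). The phosphatidate phosphatases Lpin3 and Lpin2 rose by 1.56 ± 0.29 and 0.68 ± 0.11; Lpin2 passed on 1 of 4 probe sets and not on their mean. Of 16 phospholipid synthesis genes 0 passed in limma (4 at an unadjusted p under 0.05, 1 with the block), and of 19 cholesterol synthesis genes 1 rose, Msmo1 at 0.50, and 1 fell, Cyp51 at -0.57 (2 and 1 with the block). Msmo1 did not pass with any 1 of the 6 arrays left out, nor Cyp51 with EGFP array 3 left out. Of 22 genes of fatty acid oxidation 1 rose and 0 fell (9 and 1 with the block), the rise being Hadhb at 0.45 ± 0.13, which did not pass with EGFP array 2 or 3 or any wild-type array left out.

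Of 16 gluconeogenesis and glucagon signalling genes, which serve glucose production, 2 rose and 0 fell (12.5% and 0%, against 5.08% and 2.59% of all genes), and with the block 4 rose and 2 fell. With EGFP array 2 or wild-type array 3 left out 1 rose. Pck1 had 5.34, 5.02 and 5.71 with EGFP and 6.50, 5.93 and 6.74 with wild-type IRE1a (1.03 ± 0.22, adjusted p = 0.0101), against 12.60 with the control hairpin and glucagon. It did not pass with EGFP array 2 or wild-type array 3 left out, or when its 3 probe sets were averaged. G6pc, the last step of glucose release, had 11.15, 7.83 and 8.81 with EGFP and 12.23, 8.56 and 8.68 with wild-type IRE1a (0.57 ± 1.07, adjusted p = 0.818), a spread within groups larger than the difference. The replicate 1 arrays were the high ones in both groups. Nr0b2, the repressor SHP, rose by 0.74 ± 0.16.

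In the fit without the block, calls among cell cycle genes changed with the array left out. Arrays were left out only in fits without the block, so how calls made with the block would hold was not tested. Of 30 mitotic and DNA replication genes 9 rose, 0 fell and 21 did not pass, with a median of 0.96, but 17 rose and 2 fell with the block. Leaving out EGFP array 1, 2 or 3 gave 3, 0 or 5 rises (18 had an unadjusted p under 0.05 on all arrays), and leaving out wild-type array 1, 2 or 3 gave 15, 4 or 1. With values under 4 set to 4 there was 1. Esco2, which acetylates cohesin, had 3.85, 3.55 and 4.72 with EGFP and 5.73, 6.04 and 7.91 with wild-type IRE1a (2.52 ± 0.58, adjusted p = 0.0152, and 8.47e-05 with the block). Birc5, survivin, had 5.67, 4.84 and 5.99 against 6.71, 7.71 and 8.94 (2.28 ± 0.60, adjusted p = 0.0298). In both genes wild-type replicate 3 was the highest array, and the wild-type array of each number was above the EGFP array of that number. The mitotic kinase Aurkb rose by 1.81 ± 0.39 and the centromere histone Cenpa by 1.85 ± 0.45. Of these 4 calls Aurkb was lost with EGFP array 2 left out, Cenpa with EGFP array 2 or 3 or wild-type array 3, Esco2 with EGFP array 1 or 2 or wild-type array 3, and Birc5 with EGFP array 1 or 2 or wild-type array 2 or 3. Replication licensing genes were lower without passing, with Mcm4 at -0.49 ± 0.20 and Mcm6 at -0.43 ± 0.16 (adjusted p = 0.163 and 0.126, and 0.0341 and 0.0268 with the block). Birc5, Mcm4 and Mcm6 were named after their values were seen.

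**Figure D5:**
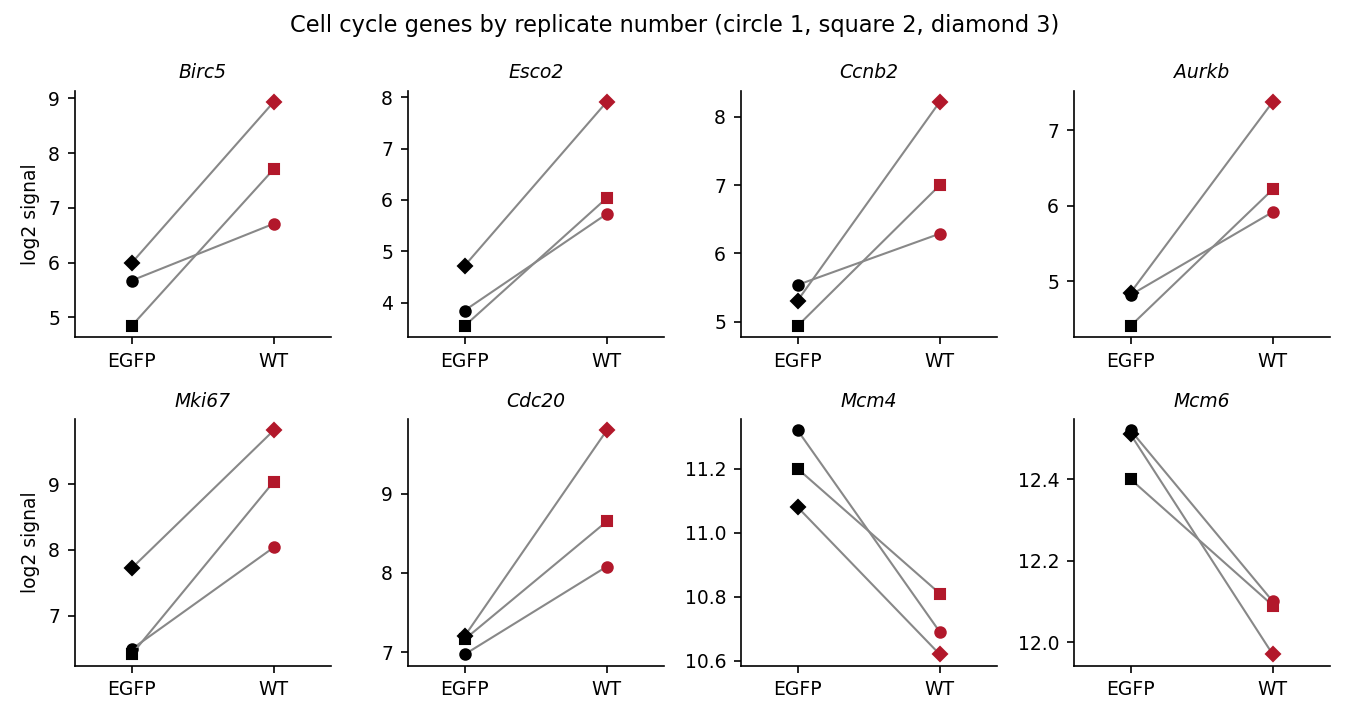
Log2 signal of 8 cell cycle genes in the EGFP and wild-type IRE1a arrays. Grey lines join arrays of the same replicate number, and each panel has its own y axis, which does not start at 0. Wild-type replicate 3 (diamond) is the highest array for the 6 mitotic genes, from 7.38 for Aurkb to 9.82 for Mki67, and Mcm4 and Mcm6 are lower with wild-type IRE1a in all 3 pairs.

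Zinc transporters moved both ways. Of 23 tested 3 rose and 4 fell (5 and 4 with the block, 3 and 2 with EGFP array 1 or any wild-type array left out, with median centring or with a floor of 4). The exporters Slc30a7 and Slc30a5, which load zinc into the secretory pathway, rose by 1.01 ± 0.14 and 0.56 ± 0.09. Slc39a6, an importer of the cell surface, fell from 11.39, 11.37 and 11.11 to 10.26, 10.23 and 10.09 (-1.09 ± 0.12, 3 of 3 probe sets), and Slc39a8 by 0.68 (SE 0.14).

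In mitochondria, single genes stood out. Of 79 respiratory chain and ATP synthase subunits 6 rose and 4 fell, or 7.59% and 5.06%, against 5.08% and 2.59% of all genes. These were 11 and 5 with the block or a floor of 4, 0 and 2 with the 6 arrays alone, and as few as 1 and 2 with wild-type array 3 left out. With EGFP array 2 left out they were 1 and 3. Ndufa9, a complex I subunit, had 11.39, 11.29 and 11.44 with EGFP and 9.54, 9.41 and 9.54 with wild-type IRE1a (-1.88 ± 0.09, adjusted p = 3.47e-08), far from the next fall, Atp5o at -0.51 ± 0.10. Of 76 mitochondrial ribosomal proteins 14 rose and 0 fell, with a median of 0.18, but 5 rose with EGFP array 2 left out, 8 and 7 with wild-type arrays 2 and 3 left out, and 6 with the 6 arrays alone. Mrps12 led at 0.86 ± 0.11. Of 44 cytosolic ribosomal proteins 1 rose and 1 fell (2.27% each, and 2 and 1 genes with the block). Rps25 went from 7.82, 8.02 and 7.89 to 9.18, 9.34 and 9.50 (1.43 ± 0.17), and Rpl7a fell by 0.47 (SE 0.08).

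Other lists held 0 to 3 calls each in limma. Over all genes 5.08% rose and 2.59% fell. The shares were 5.13% and 2.56% for proteasome subunits, 5.56% and 5.56% for bile acid genes and 8.33% and 4.17% for interferon genes. Rises made up 7.69% of autophagy genes, 6.67% of hepatocyte transcription factors and 4.35% of amino acid genes and of glutathione S-transferases. Falls made up 4.26% of the cytochromes P450. Shares near those of all genes are no result about a list. Of 18 clock genes 0 passed in limma (2 at an unadjusted p under 0.05, 1 with the block), with Nfil3 at 0.54 ± 0.18 (adjusted p = 0.0821). Of 47 cytochromes P450 of families 1 to 4, 0 rose and 2 fell (0 and 7 with the block), Cyp2e1 and Cyp2c29, the latter by 0.98 (SE 0.26), a fall that did not pass with EGFP array 2 or 3 or wild-type array 2 or 3 left out. Of 20 glucuronosyltransferases and sulfotransferases 0 passed in limma (2 at an unadjusted p under 0.05, 3 with the block). Of 23 glutathione S-transferases Gstz1 alone passed, rising by 0.61 ± 0.15 (3 passed with the block, 0 with any EGFP array or wild-type array 3 left out), and of 39 proteasome subunits 2 rose, led by Psma5 at 0.34 ± 0.09, and 1 fell, Psmc4 at -0.59 ± 0.14 (2 and 3 with the block, 0 and 0 with wild-type array 2 left out). Of 23 amino acid catabolism and urea cycle genes 1 rose (4 with the block), Nags at 0.65 ± 0.14, and of 15 hepatocyte transcription factors 1 (2 rises and 1 fall with the block), Hnf4a at 0.74 ± 0.19, which did not pass with EGFP array 2 or wild-type array 2 or 3 left out. Of 18 bile acid genes Slc27a5 fell by 1.19 (SE 0.25) and Hsd3b7 rose by 0.53 ± 0.15, lost without any 1 of the 6 arrays; with the block 4 rose and 2 fell. Of 24 interferon and antigen processing genes 2 rose and 1 fell (9 and 1 with the block). With EGFP array 2 or wild-type array 3 left out 0 of them rose, and with any other array left out 1 rose. Of 26 autophagy genes 2 rose, led by Wipi1 at 0.99 ± 0.16 (3 of 6 probe sets), and 0 fell. With the block 6 of these rose, with EGFP array 2 or 3 or wild-type array 1 or 3 left out 1 rose, and after quantile normalization 1 rose and 2 fell. Of 14 collagen-modifying enzymes P3h1 rose by 1.13 ± 0.16, while Plod2 went from 8.39, 8.15 and 8.81 to 6.26, 6.31 and 5.50 (-2.43 ± 0.35, 2 of 2 probe sets). Crtap fell by 0.50 (SE 0.13), a call lost without any 1 of the 6 arrays, and with the block 4 of these enzymes fell.

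The S724A form gave no gene that differed from wild-type IRE1a in limma: 0 of 16294 (0%) passed, 997 had an unadjusted p under 0.05, and 2 passed with the block. The interval of a difference had a median half-width of 0.30, and 38 genes differed by more than 1 without passing. Values of both forms, each set against the same EGFP arrays, stood side by side as follows. Bhlha15 averaged 9.72 with wild-type and 9.58 with S724A IRE1a, Fkbp11 11.36 and 11.32, and Arfgef3 7.51 and 7.75. Hgsnat averaged 8.32 and 8.13, and Ces1c 8.12 and 8.30. Hsp90b1 averaged 11.66 and 12.05, and Sgk1 12.17 and 11.55.

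The hairpin arm uses arrays that the comparison with EGFP does not. There the hairpin against IRE1a differed from the control hairpin in 38 of 16294 genes (0.233%). Of the 828 genes that rose with wild-type IRE1a, 60.4% had a lower mean with the hairpin against IRE1a, against 43.9% of all tested genes, with a median of -0.04. Of the 422 that fell, 51.7% were lower, with a median of -0.01. Among the rises 2 passed in the hairpin arm, both lower, and among the falls 4, of which 2 were lower and 2 higher; all were named after their values were seen. Rbbp9, a serine hydrolase, rose by 0.65 ± 0.13 with wild-type IRE1a and was lower by 0.72 with the hairpin. Smim7 rose by 0.49 ± 0.12, which did not pass with EGFP array 1 or 2 or wild-type array 3 left out, and was lower by 0.74 with the hairpin. Of the falls, Lrp11 (-0.56 ± 0.12) and Zdhhc16, a palmitoyltransferase (-0.52 ± 0.11), were also lower with the hairpin, by 0.74 and 0.68. Dntt, a DNA polymerase of lymphocytes (-0.99 ± 0.11), and Pcdh9, a protocadherin (-0.71 ± 0.15, not past with EGFP array 2 left out or with the mean of its probe sets), were higher with it, by 1.32 and 0.82. Bhlha15 averaged 5.74 with the control hairpin and 6.03 with the hairpin against IRE1a, Fkbp11 8.46 and 8.18, and Hgsnat 9.73 and 9.84.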

How the data were processed

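Total RNA of 15 hepatocyte samples was labelled with biotin and hybridised to Affymetrix Mouse Genome 430 2.0 arrays. The authors' values, 1 log2 signal per probe set and array as deposited, were made with GCRMA, per the submitters' processing notes, which name no version; the log2 scale was read from the values. GCRMA normalises arrays to each other, so a change shared by most genes would be lost. Array medians were 5.69 to 5.83, and 79.0% to 81.4% of probe sets reached 4.

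Of 45101 probe sets, 64 controls were left out; 34945 had 1 gene symbol in the platform's annotation, 932 several and 9160 none, and 34741 matched the gene table of GRCm38.p6 by gene number. The probe set with the highest mean over 15 arrays stood for each of 18193 genes, and 16294 genes with at least 4 in 3 or more arrays were tested. A 5-group model was fitted to all 15 arrays in R 4.3.3 with limma 3.58.1 (10 residual degrees of freedom), with two-sided moderated tests and Benjamini-Hochberg adjustment at 0.05. The fit was also run on simulated arrays with independent noise and no effect of replicate number. That run therefore says nothing about how a pairing of the arrays bears on the calls. The median half-width of a 95% interval was 0.30. SEs and p-values rest on a spread pooled over all 5 groups and moderated across genes, not on the 6 compared arrays alone. Rgcc, with SDs of 0.21 (EGFP) and 0.00 (wild-type), thus has an SE of 0.39. Whether the 3 samples of a group came from separate animals is not given, so this spread is one between samples.

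The labels do not pair the replicate numbers. Deviations of same-number arrays correlated in all 9 pairs of the 48-hour groups (r 0.20 to 0.54, and 0.20 to 0.39 between EGFP and wild-type). The numbers may therefore pair the samples. The main fit leaves such a pairing out, and its SEs and adjusted p-values are those given unless the block is named. A gene that did not pass in it may pass with the block, which gave 1726 rises and 813 falls against 828 and 422. The fit with the number as a block within each arm is given where it changes a call or a count by over 1.5 times.

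The members and lists were chosen with earlier results of these data known, and no list was tested. Named genes are Ern1, 5 given markers, the 10 largest rises and falls without overlap, up to 3 members per direction of each list by p (where none passed, the 1 with the smallest p) and a core of 9; others are said to be chosen afterwards. Alternatives were other scalings, filters, variance models, probe-set means, the block, and leaving out each array. The planned description of protein features was not run.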

Additional observations from a re-analysis of the deposited data

How the results depend on the processing

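Of 157 genes past the threshold that the naming rule or the ranking outside the lists gave, 125 kept their call in every alternative run, and none changed direction. Most of these were picked for a large change or a small p, so they do not stand for all calls. Of all 828 rises 380 kept their call whichever single array was left out, and of all 422 falls 224 did. The number of rises was 1726 and of falls 813 with the replicate block within each arm, which kept 1249 of the 1250 calls; counts of lists that it moved by over 1.5 times are given above. Leaving out 1 array, in fits without the block, gave 409 to 798 rises and 297 to 376 falls. Under the other alternatives both counts stayed within 1.5 times the reported ones, from 603 to 957 rises and from 324 to 614 falls. Centring on the median gene was added after the data were seen. Among values that did not pass, the direction changed for Ern1 with the mean of its probe sets (-0.11) and on leaving out 1 array (-0.02 to 0.34), for G6pc (-0.64 to 1.51) and Cd3e (-0.32 to 0.10) on leaving out 1 array, and for Lyve1 with the mean of its probe sets (0.10); the cause was not tested. The 3 arrays a group and signals near background limit what can be seen.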
